A study of Mus musculus with 4 samples.

Results

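The proteasome genes of the mouse were taken as every gene symbol that starts with Psm, followed by a letter from a to g and a digit. The rule found 50 genes among the 23991 symbols listed in each library, with 1 entry each. By textbook role they comprise 14 genes of the constitutive core particle, 17 of the regulatory particle, 3 of the immunoproteasome, 6 of activators or inhibitors (including the Psme2 copy Psme2b), 7 of assembly chaperones and 2 tissue-specific core genes. The remaining match, Psmc3ip, encodes a recombination factor and no proteasome protein, and was listed at 0 in all 4 libraries. The samples were made from both amygdalae of mice of genotype NpyCre/+;TRAPlox/lox, in which the promoter of Npy (neuropeptide Y) drives Cre, and the lox allele of TRAP (translating ribosome affinity purification) lets Cre-expressing cells carry tagged ribosomes. Total RNA of the tissue (input) was compared with RNA recovered with the tagged ribosomes (IP). Each group had 2 libraries, each from 3 pooled mice of that genotype. Each IP has its input from the same pools per the series' design text, so that p-values rest on the same 2 pools in both groups. The main fit and the permutation tests did not use this pairing. The sources used here give no age, sex or treatment of the animals, and neither a library without Cre nor a mock precipitation was analysed here. In such bulk RNA, fewer cells of a type and less RNA per cell cannot be told apart.

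The proteasome is the protease that degrades ubiquitin-tagged proteins in the cytosol and nucleus. Its barrel-shaped core has outer rings of alpha subunits, which form the gate, and inner rings of beta subunits, of which Psmb5, Psmb6 and Psmb7 carry the catalytic sites. A regulatory particle of ATPases and non-ATPase subunits recognises, unfolds and feeds in substrates, and other activators can cap the core in its place. In cells exposed to interferon the catalytic subunits are replaced by Psmb8, Psmb9 and Psmb10, which form the immunoproteasome, and in neurons proteasomes take part in the turnover of synaptic proteins.

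The deposited values are FPKM, read numbers scaled to transcript length and to the mapped reads of the library, so that levels of different genes can be set side by side per length. Pairs of values always give replicate 1 first. The FPKM of a library summed to 334759 and 335119 for the input libraries, against 423985 and 419349 for the IP libraries. Because the IP sums are larger, every comparison was also made with each library rescaled to the same sum, which moved the median log2 change of all 12415 genes tested from 0.03 to -0.29. If the authors' confidence limits span 2 SD of a read count, the tested proteasome values rest on 29 to 5599 reads, with a median of 1410, and the half-width of the limits was 2.67% to 37.3% of the value, with a median of 5.33%. All 5 markers of GABAergic neurons in the list used here, Npy and Sst among them, were higher in IP. Of the markers of microglia (10 tested), endothelium (3), astrocytes (6), oligodendrocytes (5) and glutamatergic neurons (4), 27 of 28 were lower in IP, and Gfap did not pass. By the same calls, 37.0% of all genes tested were higher and 33.9% lower.

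Nearly all proteasome genes were higher in IP than in input. Of the 45 that passed the filter of at least 1 FPKM in at least 2 libraries, 43 rose, where 37.0% of all genes tested were called higher. Psme4 was the only 1 called lower, where 33.9% of all genes were, and Psmf1 did not pass. A call is an adjusted p under 0.05 in limma on log2(FPKM + 1). Both IP values lay above both input values for 44 of the 45, against 45.0% of all genes. Counted in either direction, the groups did not overlap for any of the 45, nor for 10722 of all 12415 genes tested. A lack of overlap alone thus marks most genes of these libraries. The median log2 change of the 45 genes was 0.55, beside 0.03 over all genes, and the ratios of mean FPKM ran from 0.558 for Psme4 to 2.92 for Psme2, with a median of 1.47. With the libraries rescaled to the same sum the median was 0.21, and 28 of the 45 were called higher, against 17.9% of all genes, while 3 were called lower (Psme3, Psme4 and Psmf1), against 53.9%. With quantile normalization 30 were called higher and 2 lower, against 35.3% and 30.2% of all genes. The order of the levels was nearly the same in both groups, with Spearman's rho of 0.986 across the 45 genes between mean input and mean IP, and 0.996 between the input libraries. These points share libraries and rho is given as a description.

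**Figure D1:**
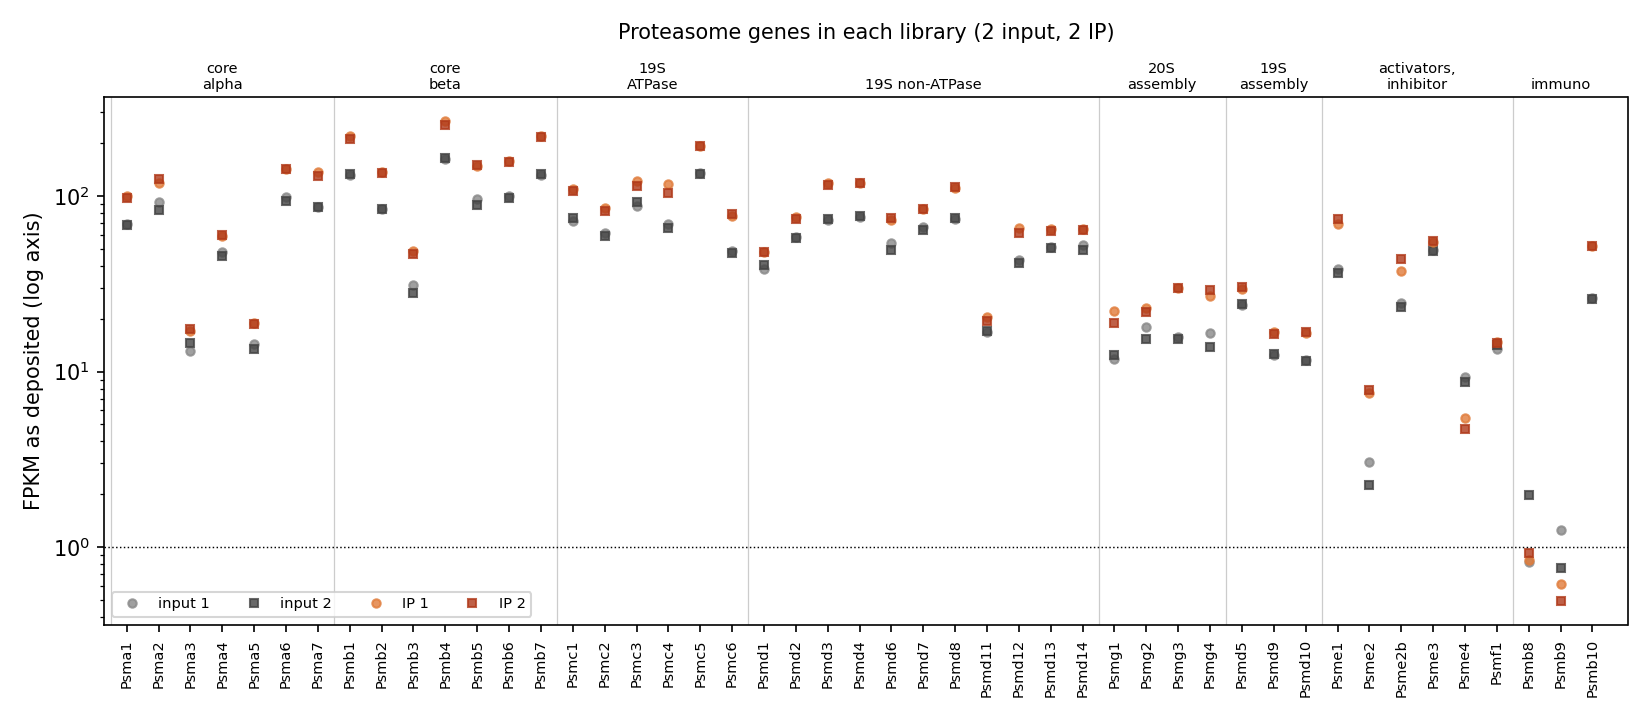
FPKM on a log axis of 47 proteasome genes in each of the 4 libraries, grouped by role (grey, input; orange and red, IP); the dotted line marks 1 FPKM. The IP points lie above the input points for 44 genes, Psme4 and Psmb9 show the reverse, and the Psmb8 values overlap.

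The 7 constitutive beta-ring genes rose, as deposited by nearly the same amount. Psmb7, the trypsin-like catalytic subunit, was at 132 and 134 FPKM in the input libraries (replicates 1 and 2), against 220.0 and 219 FPKM in the IP libraries. Both IP values lay above both input values (log2 change 0.72, SE 0.04, adjusted p = 4.61e-05). Psmb6, the caspase-like subunit, was at 100.1 and 97.1 FPKM among the input libraries and at 159 and 157 FPKM among the IP libraries (log2 change 0.68, SE 0.05, adjusted p = 6.4e-05). For Psmb5, which carries the chymotrypsin-like site, the levels were 96.5 and 89.0 FPKM in the 2 input libraries, compared with 148 and 150.1 FPKM in the IP libraries (log2 change 0.68, SE 0.06, adjusted p = 0.00012). The groups did not overlap for either gene, as for most genes tested. Among the non-catalytic beta subunits, Psmb1 was at 133 and 134 FPKM in input, against 221 and 213 FPKM in IP (log2 change 0.70, SE 0.05, adjusted p = 5.79e-05). Psmb2 was at 84.2 and 85.0 FPKM among the input libraries and at 137 and 135 FPKM among the IP libraries (log2 change 0.68, SE 0.04, adjusted p = 5.84e-05). Psmb4 had the highest level per length of all 50 genes, at 164 and 165 FPKM in the 2 input libraries, compared with 267 and 255 FPKM in the IP libraries, with the smallest change of the ring at 0.66 (adjusted p = 7.36e-05). Psmb3 had the lowest level of the ring, at 31.0 and 28.1 FPKM in input, against 48.9 and 46.5 FPKM in IP (log2 change 0.67, SE 0.07, adjusted p = 0.000229). The 7 log2 changes thus ran only from 0.66 to 0.72, with a median of 0.68, although the levels in IP differed by over 5-fold between Psmb3 and Psmb4. All 7 were still called higher after rescaling, against 17.9% of all genes, with changes of 0.33 to 0.38. The narrow range did not hold in other settings, in which all 7 were also called higher. Changes were 0.19 to 0.41 with quantile normalization. They were 0.18 (Psmb3) to 0.49 (Psmb1) with the trend of change on transcript length removed. The length used there is that of the longest annotated transcript, 1970 nt for Psmb1, which may not be the one expressed.

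The 7 alpha-ring genes rose as well, over a wider range of 0.30 to 0.63 and with a median of 0.47. Psma7 had the largest change, at 86.3 and 86.6 FPKM in the input libraries (replicates 1 and 2), against 138 and 131 FPKM in the IP libraries (log2 change 0.63, SE 0.05, adjusted p = 0.000102). Psma6 was at 99.5 and 93.5 FPKM among the input libraries and at 142 and 143 FPKM among the IP libraries (log2 change 0.56, SE 0.05, adjusted p = 0.000173). Psma1 was at 69.4 and 68.2 FPKM in the 2 input libraries, compared with 99.9 and 98.1 FPKM in the IP libraries (log2 change 0.52, SE 0.05, adjusted p = 0.000159). In these 3 genes the libraries of a group lay close together and the groups were well apart. The smallest changes were those of Psma3 and Psma4. Psma3 was at 13.1 and 14.5 FPKM in input, against 17.0 and 17.4 FPKM in IP (log2 change 0.30, SE 0.07, adjusted p = 0.00828), and leaving out input replicate 1 ended the call. Psma4 was at 48.0 and 45.5 FPKM among the input libraries and at 59.2 and 60.1 FPKM among the IP libraries (log2 change 0.35, SE 0.05, adjusted p = 0.00133). After rescaling, 3 of the 7 alpha genes were called higher (Psma1, Psma6 and Psma7), against 17.9% of all genes, and Psma3 stood at -0.02 (adjusted p = 0.827). Within a library, where a single scale factor has no part, the geometric mean of the beta genes was set against that of the alpha genes. It was 203% and 205% of it in the input libraries, against 241% and 234% in the IP libraries. The ratio was thus higher in both IP libraries, with an exact two-sided permutation p of 0.333. That is the smallest p such a test can give for 2 libraries against 2 when their pairing is not used.

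The promoters were searched for all genes under the symbol rule, of every role and with Psmc3ip, because the core and regulatory genes moved together. Another reason was that Nfe2l1, a transcription factor that induces proteasome genes, is known to act through antioxidant response elements. The motif TGACNNNGC, the core of that element, was looked for on both strands of RefSeq windows from 250 bases before to 50 bases after each gene's start (GRCm38.p6), which were matched by symbol for 42 of the 50 genes. It was found in 6 of the 42 (14.3%), namely Psmb5, Psmb6, Psmc6, Psmd9, Psmd12 and Psme4, against 14.0% of all 27025 genes with such a window, so that its share was close to the background. The stretches around the matches that lie before the start are shown, 5′ to 3′ in the direction of the gene, with the match in capitals (the match of Psme4 reaches past the start and is not shown):
Psmb5, chr14:54617996-54618082, minus strand: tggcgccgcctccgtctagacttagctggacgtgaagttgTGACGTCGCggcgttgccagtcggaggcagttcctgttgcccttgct
Psmb6, chr11:70525308-70525356, plus strand: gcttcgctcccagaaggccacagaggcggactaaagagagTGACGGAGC
Psmc6, chr14:45329574-45329645, plus strand: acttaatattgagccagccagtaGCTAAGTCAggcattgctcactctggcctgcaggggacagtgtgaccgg
Psmd12, chr11:107479278-107479329, plus strand: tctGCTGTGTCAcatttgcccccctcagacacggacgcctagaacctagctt
Psmd9, chr5:123228119-123228189, plus strand: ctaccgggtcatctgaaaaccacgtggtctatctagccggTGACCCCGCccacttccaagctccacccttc
In Psmc6 and Psmd12 the match is on the opposite strand, so that the capitals read as the reverse complement of the motif. The 6 genes with a match included both the one that fell, Psme4, and 5 that rose. The motif GAAANNGAAA, the core of the interferon-stimulated response element, was in 5 of the 42 genes (11.9%; Psmb3, Psmd4, Psmd9, Psme1 and Psmg4), against 3.99% of all genes, and CCAAT was in 15 (35.7%, against 41.1%). Each motif was counted on its own, whether or not another overlapped it, and such matches of letters only describe these windows.

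All 17 genes of the regulatory particle rose, with a median log2 change of 0.51. The 6 ATPases, which form the ring that unfolds substrates, changed by 0.38 to 0.70. Psmc4 was at 69.1 and 65.5 FPKM in the 2 input libraries, compared with 117 and 104 FPKM in the IP libraries (log2 change 0.70, SE 0.07, adjusted p = 0.000229). Psmc6 was at 48.9 and 47.1 FPKM in input, against 77.1 and 79.2 FPKM in IP (log2 change 0.69, SE 0.05, adjusted p = 7.68e-05). Psmc1 was at 71.9 and 75.6 FPKM among the input libraries and at 109 and 107 FPKM among the IP libraries (log2 change 0.55, SE 0.05, adjusted p = 0.000176). IP values exceeded input values in every case, with the IP libraries of Psmc4 further apart than those of the others. Psmc3 and Psmc2 had the smallest changes of the ring. Psmc3 was at 87.5 and 93.0 FPKM in the 2 input libraries, compared with 122 and 115 FPKM in the IP libraries (log2 change 0.38, SE 0.06, adjusted p = 0.00118), and Psmc2 at 61.5 and 59.3 FPKM in input, against 85.2 and 82.6 FPKM in IP (log2 change 0.47, SE 0.05, adjusted p = 0.000313). After rescaling 5 of the 6 were still called higher, against 17.9% of all genes, without Psmc3 (0.05, adjusted p = 0.461).

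The 11 non-ATPase subunits of the regulatory particle changed by 0.23 to 0.67, with a median of 0.37. Psmd3, a subunit of the lid, was at 73.3 and 74.5 FPKM among the input libraries and at 119 and 116 FPKM among the IP libraries (log2 change 0.67, SE 0.05, adjusted p = 6.94e-05). Psmd4, a receptor for ubiquitin chains, was at 76.3 and 76.9 FPKM in the 2 input libraries, compared with 119 and 118 FPKM in the IP libraries (log2 change 0.62, SE 0.04, adjusted p = 7.64e-05). Psmd8, also of the lid, was at 73.9 and 74.7 FPKM in input, against 111 and 113 FPKM in IP (log2 change 0.58, SE 0.05, adjusted p = 9.93e-05). These 3 genes had no overlap between groups, like most genes tested. At the other end, Psmd11, which clamps the regulatory particle to the core, was at 16.7 and 17.1 FPKM among the input libraries and at 20.6 and 19.3 FPKM among the IP libraries (log2 change 0.23, SE 0.06, adjusted p = 0.0158). The adjusted p of Psmd11 rose to 0.0775 when input replicate 1 was left out, to 0.0564 for input replicate 2 and to 0.0717 for IP replicate 1, so that the call rests on each of them. Psmd1, a large scaffold subunit, was at 38.4 and 40.7 FPKM in the 2 input libraries, compared with 48.2 and 48.2 FPKM in the IP libraries (log2 change 0.28, SE 0.05, adjusted p = 0.00382). Psmd14, the deubiquitinase that strips ubiquitin from substrates, was at 52.8 and 49.3 FPKM in input, against 65.3 and 63.9 FPKM in IP (log2 change 0.33, SE 0.05, adjusted p = 0.00193). After rescaling, 5 of the 11 were called higher, against 17.9% of all genes. The other 6 did not pass, with Psmd11 at -0.10, Psmd1 at -0.05, Psmd13 at -0.01 and Psmd14 at -0.00160. The geometric mean of the 17 regulatory genes was 87.7% and 89.2% of that of the 14 core genes in the input libraries, against 83.4% and 82.3% in the IP libraries, and was thus lower beside the core in both IP libraries. This order turned with the length trend removed, by the longest annotated transcript of each gene. The median change was then 0.25 for the regulatory and 0.21 for the core genes, against 0.51 and 0.65 as deposited.

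**Figure D2:**
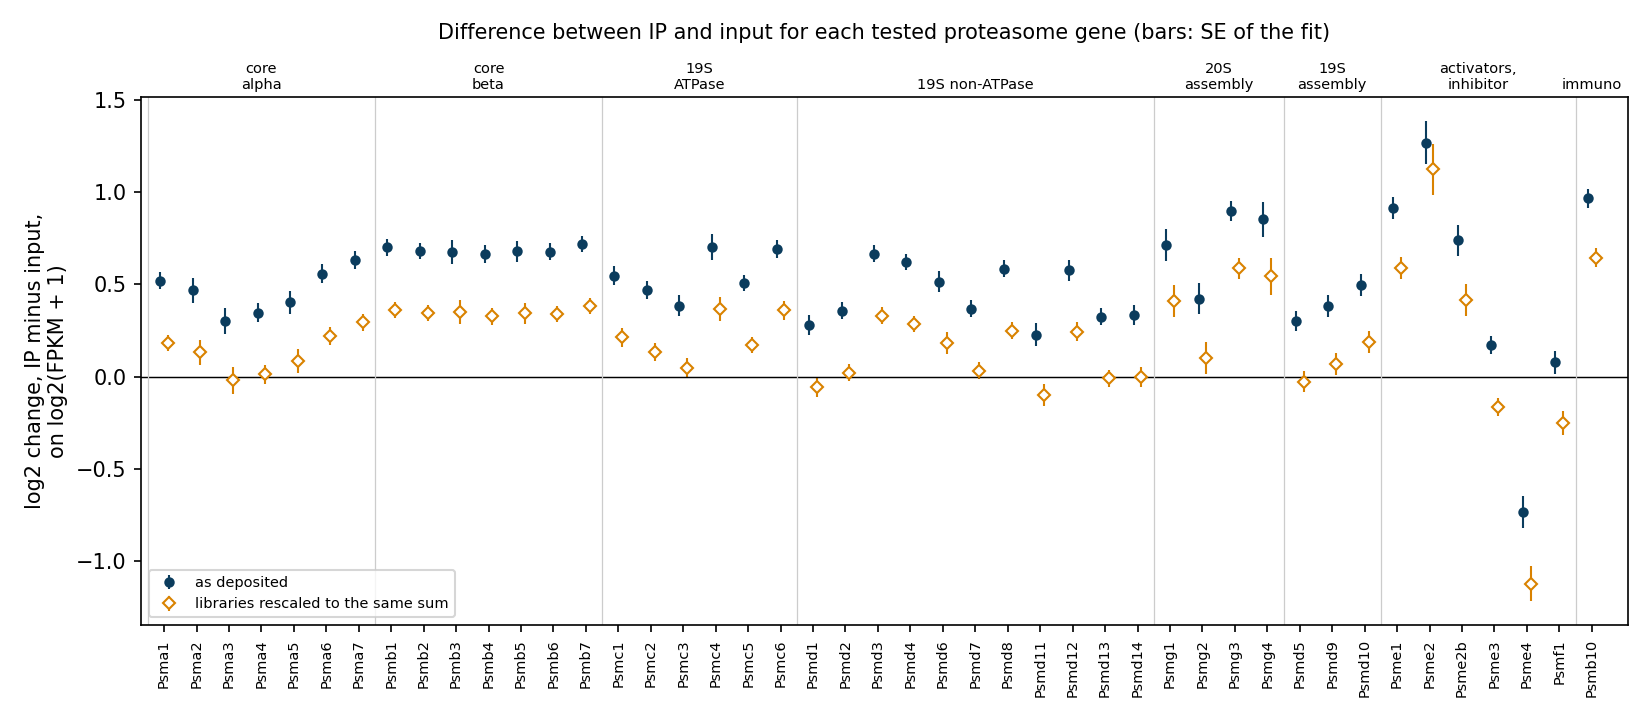
Log2 change (IP minus input, on log2(FPKM + 1)) with the SE of the fit for the 45 tested proteasome genes, as deposited (filled circles) and with the libraries rescaled to the same sum (open diamonds). The beta-ring genes sit together between 0.66 and 0.72 as deposited, Psme2 and Psmb10 are highest, and Psme4 lies below 0 in both scalings.

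The activators of the core diverged most. Psme1 and Psme2 encode the subunits of the interferon-inducible cap PA28, and Psme2b is a second gene for the Psme2 product. Psme1 was at 38.5 and 36.3 FPKM in the input libraries (replicates 1 and 2), against 69.1 and 73.7 FPKM in the IP libraries (log2 change 0.91, SE 0.06, adjusted p = 5.39e-05). Psme2 was at 3.04 and 2.25 FPKM among the input libraries and at 7.58 and 7.86 FPKM among the IP libraries (log2 change 1.27, SE 0.12, adjusted p = 0.000183). Psme2b was at 24.5 and 23.5 FPKM in the 2 input libraries, compared with 37.5 and 44.0 FPKM in the IP libraries (log2 change 0.74, SE 0.08, adjusted p = 0.000407). All 3 stood higher in both IP libraries, with ratios of mean FPKM of 1.91, 2.92 and 1.70 for Psme1, Psme2 and Psme2b. All 3 were also called higher after rescaling (0.59, 1.12 and 0.42).

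The split between Psme2 and Psme2b is uncertain, because their coding sequences are nearly identical. Psme2 has 11 coding exons on chromosome 14 (GRCm38.p6, 55587485 to 55590889), and Psme2b has 1 on chromosome 11 (48945399 to 48946118), both on the minus strand. Their coding sequences of 720 bases in RefSeq differ at 5 positions (99.3% identity), and the longest identical stretch is 311 bases. The 100 bases with the most differences, positions 444 to 543 of the coding sequence counted from the first base of the start codon, are shown with the differing bases in capitals:
Psme2: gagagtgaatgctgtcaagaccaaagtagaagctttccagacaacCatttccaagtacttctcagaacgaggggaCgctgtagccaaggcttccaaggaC
Psme2b: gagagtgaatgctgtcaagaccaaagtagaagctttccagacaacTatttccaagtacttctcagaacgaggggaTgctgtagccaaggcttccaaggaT
Of the 621 stretches of 100 bases in the coding sequence, the length of a read here, 310 (49.9%) hold no difference at all. Summed over both genes, the values were 27.5 and 25.7 FPKM in input, against 45.1 and 51.8 FPKM in IP, a ratio of means of 1.82. That sum was 71.5% and 70.8% of Psme1 in the input libraries, against 65.3% and 70.4% in the IP libraries, so that the sum and its partner rose by a similar factor, with both IP ratios slightly below both input ratios. By alignment of each gene's longest protein-coding transcript to the genome, Psma4, Psma5, Psmb3, Psmb5 and Psmd2 also have a copy elsewhere of at least 95% identity over at least 80% of the transcript, and the counting of reads that match several places is not stated. Psme2b was counted among the genes that have a copy. The 38 tested genes in which none was found had a median change of 0.53, with 36 higher and 1 lower. The 7 with a copy had a median of 0.67, all higher. This rule could miss a copy of a shorter transcript of a gene. Gene bodies of other protein-coding RefSeq genes overlap those of Psma4 (AY074887), Psmd1 (Htr2b), Psmd10 (Atg4a), Psme1 (Emc9), Psme2b (9930111J21Rik1), Psme4 (Erlec1) and Psmf1 (Tmem74b), and whether reads were counted by strand is not stated, so that these values may hold reads of the partner gene.

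Before any length correction, Psme3, Psme4 and Psmf1 did not follow the core genes. Psme4 encodes PA200, a nuclear activator, on chromosome 11, from 30771775 to 30880361 (mm10). It was at 9.37 and 8.76 FPKM in the input libraries (replicates 1 and 2), against 5.42 and 4.70 FPKM in the IP libraries. Both IP values lay below both input values (log2 change -0.73, SE 0.09, adjusted p = 0.000514), with a mean of 9.07 ± 0.425 FPKM in input and 5.06 ± 0.507 in IP (SD, n = 2). The Psme4 change was -1.12 after rescaling. Psme3, which forms the nuclear cap PA28 gamma, was at 49.0 and 49.0 FPKM in input, against 54.9 and 55.7 FPKM in IP (log2 change 0.17, SE 0.05, adjusted p = 0.0173). The Psme3 call rested on the scaling, since the gene was called lower after rescaling (-0.17, adjusted p = 0.0207) and with quantile normalization (-0.15, adjusted p = 0.0337). The adjusted p as deposited rose to 0.0766 when input replicate 1 was left out, to 0.0795 for input replicate 2 and to 0.0617 for IP replicate 2. Psmf1 encodes PI31, which inhibits the core in vitro, and was at 13.5 and 14.2 FPKM among the input libraries and at 14.7 and 14.5 FPKM among the IP libraries (log2 change 0.08, SE 0.06, adjusted p = 0.3). It did not pass as deposited and was called lower after rescaling (-0.25, adjusted p = 0.0121). With the length trend removed, neither Psmf1 (0.13, adjusted p = 0.108) nor Psme3 (0.07, adjusted p = 0.205) passed. Both then lay within the range of the core genes, -0.06 to 0.49.

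The immunoproteasome genes split into 1 abundant gene that rose and a pair near the limit of measurement. Psmb10, the counterpart of Psmb7, lies on chromosome 8, from 105935728 to 105938392 (mm10), and no other RefSeq gene overlaps it. It was at 26.3 and 25.9 FPKM in the input libraries (replicates 1 and 2), against 51.7 and 52.2 FPKM in the IP libraries. The IP values were about double the input values (log2 change 0.97, SE 0.05, adjusted p = 3.17e-05; ratio of means 1.99), with means of 26.1 ± 0.312 FPKM in input and 51.9 ± 0.313 in IP (SD, n = 2). It was called higher after rescaling too (0.64). Psmb8, the counterpart of Psmb5, was at 0.824 and 1.99 FPKM in the input libraries (replicates 1 and 2), against 0.845 and 0.918 FPKM in the IP libraries, which under the reading of the limits given for depth corresponds to about 18, 44, 21 and 19 reads. The groups overlapped, and input replicate 2 stood apart from the other 3 libraries. Psmb9, the counterpart of Psmb6, was at 1.25 and 0.754 FPKM in the input libraries (replicates 1 and 2), against 0.617 and 0.494 FPKM in the IP libraries, or about 16, 10, 9 and 6 reads. Both IP values were below both input values, but the authors' confidence limits overlapped between groups. Psmb8 and Psmb9 lie close together on chromosome 17, on either side of Tap1 (34182099 to 34187330 for Psmb9 and 34198195 to 34201454 for Psmb8, mm10) and did not reach the filter. Without the filter neither passed (Psmb8 -0.31, adjusted p = 0.362; Psmb9 -0.35, adjusted p = 0.101), so that no difference was detectable at this depth.

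Each immunoproteasome subunit was also set against its constitutive counterpart within a library, a ratio that a single scale factor per library does not touch. Psmb10 was 19.98% and 19.4% of the Psmb7 level in the input libraries, against 23.5% and 23.9% in the IP libraries. Psmb8 was 0.854% and 2.24% of the Psmb5 level in the input libraries, against 0.572% and 0.611% in the IP libraries. Psmb9 was 1.25% and 0.776% of the Psmb6 level in the input libraries, against 0.387% and 0.315% in the IP libraries. The Psmb10 ratio was thus higher in both IP libraries, and the other ratios were lower in both. Each of these 3 comparisons had an exact two-sided permutation p of 0.333. This is the smallest p for 2 libraries against 2 when their pairing is not used. The Psmb8 ratio in IP was 0.383 of that in input on average and 0.693 of it without input replicate 2.

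**Figure D3:**
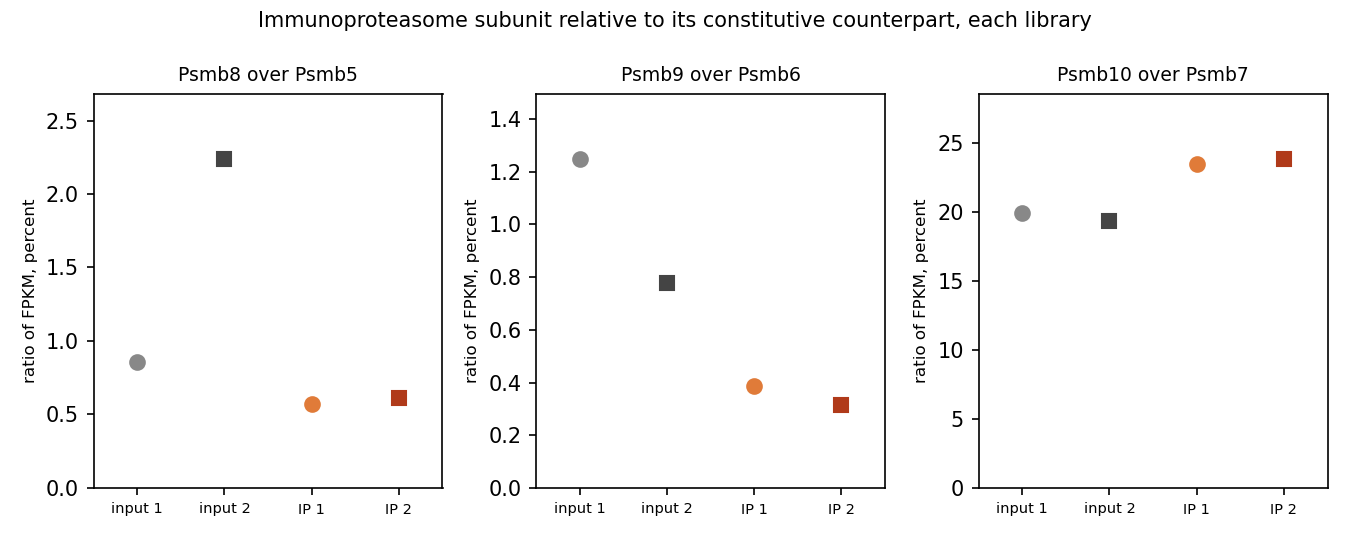
FPKM of Psmb8, Psmb9 and Psmb10 as a percentage of Psmb5, Psmb6 and Psmb7 in each of the 4 libraries, 1 point per library, each panel with its own axis from 0. Psmb10 rises to above 23% in both IP libraries, while Psmb8 and Psmb9 stay below 3% everywhere.

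Markers of microglia, which can express immunoproteasome genes, moved downward in the same libraries. All 10 tested markers were lower in IP, with none at 0, where 33.9% of all genes were called lower. Their summed level was 67.0 and 59.8 FPKM in the input libraries, against 9.84 and 10.3 FPKM in the IP libraries. The 7 endothelial markers, of which 3 were tested and fell, summed to 8.21 and 6.86 FPKM in input, against 1.47 and 1.81 FPKM in IP. Their part in the Psmb8 and Psmb9 values was not tested. Of 8 genes of the interferon response and antigen processing, 5 were tested. Of these, 4 did not pass and 1, the transcription factor gene Irf1, fell, beside 33.9% of all genes called lower. Irf1 was at 3.48 and 2.95 FPKM in the 2 input libraries, compared with 0.801 and 0.912 FPKM in the IP libraries (log2 change -1.18, SE 0.10, adjusted p = 0.000147). After rescaling, a setting in which 53.9% of all genes were called lower, all 5 were called lower. With quantile normalization 1 was, against 30.2% of all genes, and with the length trend removed 3 were, against 31.7%. Psmb10, Psme1 and Psme2 were called higher as deposited and after rescaling.

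All 7 assembly chaperone genes rose, with a median log2 change of 0.78 for the 4 of the core and 0.39 for the 3 of the regulatory particle, although Psmg2 of the core lay below Psmd10. With the length of the longest annotated transcript taken into account the medians were 0.30 and 0.28. Psmg1 and Psmg2 encode one pair of chaperones of the alpha ring, and Psmg3 and Psmg4 the other. Psmg3 was at 15.8 and 15.4 FPKM in the input libraries (replicates 1 and 2), against 29.8 and 30.0 FPKM in the IP libraries (log2 change 0.90, SE 0.05, adjusted p = 4.66e-05). Psmg4 was at 16.6 and 13.8 FPKM in input, against 26.9 and 29.2 FPKM in IP (log2 change 0.85, SE 0.09, adjusted p = 0.000388). Psmg1 was at 11.8 and 12.4 FPKM among the input libraries and at 22.2 and 18.8 FPKM among the IP libraries (log2 change 0.71, SE 0.09, adjusted p = 0.000584). Groups did not overlap for these genes, as for most genes tested, and Psmg3 had the closest replicates. Psmg2 was at 17.9 and 15.3 FPKM in the 2 input libraries, compared with 23.0 and 21.9 FPKM in the IP libraries (log2 change 0.42, SE 0.08, adjusted p = 0.0047). Psmd5, Psmd9 and Psmd10 help to assemble the ATPase base. Psmd10, also called gankyrin, was at 11.7 and 11.4 FPKM in input, against 16.6 and 16.8 FPKM in IP (log2 change 0.50, SE 0.06, adjusted p = 0.000515). Psmd9 was at 12.4 and 12.5 FPKM among the input libraries and at 16.9 and 16.3 FPKM among the IP libraries (log2 change 0.38, SE 0.06, adjusted p = 0.00157), and Psmd5 at 24.0 and 24.3 FPKM in the 2 input libraries, compared with 29.4 and 30.5 FPKM in the IP libraries (log2 change 0.30, SE 0.05, adjusted p = 0.00281). After rescaling, 4 of the 7 were called higher (Psmg1, Psmg3, Psmg4 and Psmd10), against 17.9% of all genes, and Psmd5 stood at -0.03 (adjusted p = 0.682). Pomp, which encodes the chaperone of the beta ring and is outside the symbol rule, was at 161 and 148 FPKM in input, against 279 and 275 FPKM in IP (log2 change 0.84, SE 0.06, adjusted p = 5.83e-05).

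Against the geometric mean of the 14 core genes of the same library, the place of single genes cannot depend on a single scale factor per library. That mean was 66.9 and 65.1 FPKM in input, against 99.2 and 98.3 FPKM in IP. Psme4 was 14.0% and 13.5% of the core mean in input and 5.46% and 4.78% in IP. Psme3 was 73.2% and 75.2% of the core mean in input and 55.3% and 56.6% in IP. These genes, like Psmf1 at 20.1% and 21.7% of the core mean in input and 14.8% and 14.8% in IP, took a smaller place beside the core in both IP libraries. Psmb10 was 39.3% and 39.7% of the core mean in input and 52.1% and 53.0% in IP. Psme1 was 57.5% and 55.7% of the core mean in input and 69.6% and 74.9% in IP. Psmg3 was 23.6% and 23.7% of the core mean in input and 30.0% and 30.5% in IP. The last 3 took a larger place in both IP libraries. The assembly genes as a whole moved by under 1 percentage point. They were at 22.8% and 22.4% of the core mean in the input libraries, against 23.2% and 23.0% in the IP libraries. Quantile normalization is not a single factor and can change such places. With it the median change was 0.44 for the assembly and 0.23 for the core genes, against 0.50 and 0.65 as deposited.

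The size of the change went with transcript length. Across the 45 tested genes, Spearman's rho between the length of the longest protein-coding transcript and the log2 change was -0.71, and it was -0.37 across the 12344 genes tested that have a length. Genes of 1 table share libraries, so both are descriptions. The median length was 899 nt for the beta genes, 1201 nt for the alpha genes and 1819 nt for the regulatory genes, against 3188 nt for all genes tested. Psme4 had the longest transcript of the 45, at 6491 nt, and Psmg4 the shortest, at 555 nt. With the trend of change on length over all genes removed from each library, 33 of the 45 genes were called higher, against 34.0% of all genes, and 1 lower, against 31.7%, with a median of 0.23 beside 0.02 over all genes. In that setting the beta genes had a median of 0.21 (7 of 7 higher) and the alpha genes 0.12 (4 of 7). The regulatory genes stood at 0.25 (12 of 17). Psma2 and Psma3, given 2911 and 2846 nt, are among the 4 alpha genes called higher. The longest annotated transcript may not be the one expressed, so these class medians depend on that choice. In the same setting Psmb10 stood at 0.60 (adjusted p = 0.000181), Psme1 at 0.49 (adjusted p = 0.000555) and Psme4 at -0.47 (adjusted p = 0.0036).

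**Figure D4:**
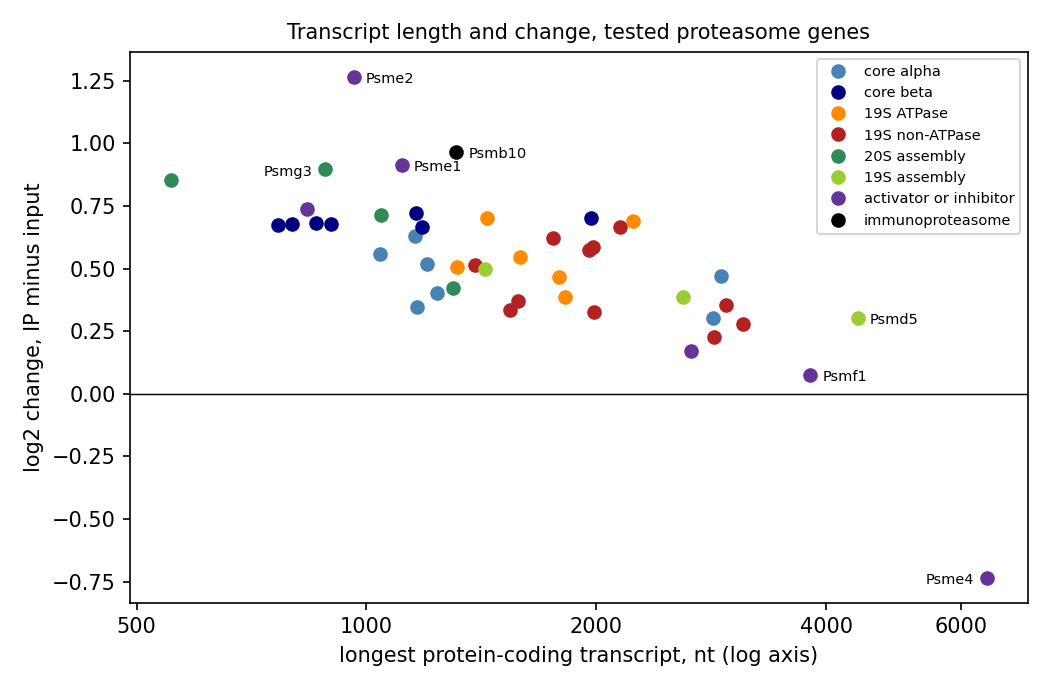
Log2 change (IP minus input) against the length of the longest protein-coding transcript (log axis) for the 45 tested proteasome genes, coloured by role. Changes fall with length (Spearman's rho -0.71), with Psme4 at 6491 nt alone below 0.

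Genes that work with the proteasome were described from lists chosen by role. Of 9 tested partner genes, 6 rose, 1 fell and 2 did not pass, where 37.0% of all genes were called higher and 33.9% lower. Shfm1, which encodes the smallest regulatory subunit, was at 105 and 98.1 FPKM among the input libraries and at 188 and 190.3 FPKM among the IP libraries (log2 change 0.89, SE 0.05, adjusted p = 4.06e-05). AI314180, the mouse symbol for the proteasome adaptor Ecm29, fell, at 15.7 and 14.4 FPKM in the 2 input libraries, compared with 12.3 and 11.2 FPKM in the IP libraries (log2 change -0.33, SE 0.08, adjusted p = 0.00819). With the length trend removed its call was lost (-0.03, adjusted p = 0.719). Of 5 genes that control proteasome gene expression, 3 rose and 2 fell. Nfe2l1 was at 77.1 and 76.1 FPKM in input, against 105 and 97.3 FPKM in IP (log2 change 0.40, SE 0.05, adjusted p = 0.000934; 0.06 after rescaling, adjusted p = 0.324). Its relative Nfe2l2, which drives the oxidative stress response, was at 4.06 and 4.61 FPKM among the input libraries and at 0.810 and 0.562 FPKM among the IP libraries (log2 change -1.66, SE 0.11, adjusted p = 6.31e-05) and fell, so that the related factors moved in opposite directions as deposited. The other gene that fell was Ddi2, whose protease product activates the Nfe2l1 protein (log2 change -0.52, SE 0.11, adjusted p = 0.00647). With the length trend removed Nfe2l2 was still called lower (-1.79, adjusted p = 0.000105) and Ddi2 was not (-0.05, adjusted p = 0.673). Of 5 shuttle factor genes 4 rose and 1 did not pass, and of 6 genes of ubiquitin and its activation 4 rose and 2 did not pass. After rescaling, the partner list had 5 higher and 3 lower, the regulators 0 and 2, the shuttle factors 1 and 2, and the ubiquitin genes 1 and 1, where 17.9% of all genes were called higher and 53.9% lower.

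The tissue-specific core genes were at the floor of the measurement. Psma8, the alpha subunit of the testis, was at 0.0625 and 0.0302 FPKM in the 2 input libraries, compared with 0.0274 and 0.0989 FPKM in the IP libraries, or about 1 to 3 reads. Psmb11, the beta subunit of the thymic cortex, was at 0.0573 and 0.0111 FPKM in input, against 0.0302 and 0.0362 FPKM in IP, or about 1 to 5 reads. The groups overlapped for both genes and no difference was detectable at this depth.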

How the data were processed

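Per the series' design text, libraries of 200 ng RNA were sequenced as 100 bp single-end reads and aligned with TopHat to mm10 with the UCSC annotation of iGenomes; tool versions are not given in the sources used here. The authors deposited Cufflinks FPKM per gene, with confidence limits, per the file headers. Groups and numbers came from the sample titles; the source description of IP replicate 2 instead gives replicate 1. Each IP has its input from the same pools per the design text, so the numbers pair the libraries (correlation of the deviations of IP and input replicate 1 across genes, 0.162).

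Of 24490 entries, 8 with a failed status and 1287 with small RNA names were left out, and the highest entry per symbol was kept. Genes with at least 1 FPKM in at least 2 libraries (12415) were tested on log2(FPKM + 1), which understates changes of low genes, with limma 3.58.1 (R 4.3.3; lmFit, eBayes with trend, no block), two-sided, Benjamini-Hochberg over all genes, threshold 0.05. File starts count from 0 and are given 1-based. Lengths are from GENCODE M21 (99.4% of genes), sequences from RefSeq, copies from blastn 2.17.0. Named genes were all immunoproteasome, activator, inhibitor and assembly genes, the 3 largest and 2 smallest changes of each core and regulatory group, the tissue-specific genes, all that fell or did not pass, and companions; Psmb5, Psmb6, Psmd14 and Ddi2 were added after their values were seen. Members and lists were chosen with earlier results of these data known. Alternatives are other pseudocounts, filters, scalings, eBayes options, summed entries, a replicate block, a length correction and each library left out.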

Additional observations from a re-analysis of the deposited data

How the results depend on the processing

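Of the 45 tested genes, all kept their direction and their side of the threshold under pseudocounts of 0.1 and 5, a filter at 5 FPKM or none, median-of-ratios size factors, eBayes without trend or robust, and summed entries. The replicate block, which uses the pairing of the libraries, changed no call either, with 43 genes higher and 1 lower. Rescaling to the same sum gave 28 higher and 3 lower (all genes, 17.9% and 53.9%), with 10 regulatory and 4 assembly genes higher. Quantile normalization gave 30 higher and 2 lower (all genes, 35.3% and 30.2%), with 8 regulatory genes higher. The direction reversed after rescaling for Psma3 (-0.019), Psmd1 (-0.055), Psmd5 (-0.027), Psmd11 (-0.10), Psmd13 (-0.0099), Psmd14 (-0.0016), Psme3 (-0.17) and Psmf1 (-0.25), with quantile normalization for Psmd1 (-0.018), Psmd13 (-0.00043) and Psme3 (-0.15), and with the length correction for Psma4 (-0.059). The cause was not tested. With 1 library left out, where the lone library is assumed to vary like the other group, 40 to 42 genes were higher and 1 lower each time, with 13 to 14 core and 16 to 17 regulatory genes higher. The Psmb8 over Psmb5 ratio of IP to input, 0.383, was 0.265 to 0.693 with 1 library left out. Depth limits Psmb8, Psmb9, Psma8 and Psmb11.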
